A study of Homo sapiens with 6 samples.

Results

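The 222 zinc finger genes with symbols ZNF500 to ZNF799 were taken from the 23228 genes of the count tables by symbol alone, as every row named ZNF and a number from 500 to 799, with or without a letter after it. ZNF numbers are assigned by the nomenclature committee and carry no function, so these genes are a slice of the largest family of human transcription factors, chosen by name and by no measured value. The cells were MDA-MB-231, a human triple-negative breast cancer line. The tested libraries are those labelled as SCUBE3 knockdown (n = 3), from cells given lentivirus with an shRNA to SCUBE3, a secreted glycoprotein; the others (n = 3) came from cells given a scrambled shRNA. Both groups therefore carried a lentiviral shRNA and had a week of puromycin selection. The labels name 1 cell line, do not say whether the replicates were separate cultures, and do not say how many shRNAs were used, so p-values here reflect how much the libraries of a group vary, and that variation may be technical.

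A C2H2 zinc finger is a short fold held by a zinc ion through a pair of cysteines and a pair of histidines, and a row of such fingers reads DNA a few bases at a time. Many of these proteins also carry a KRAB box, which binds the corepressor TRIM28 (KAP1); TRIM28 brings in the histone methyltransferase SETDB1, HP1 proteins and other silencing factors, and a main set of targets is transposable elements. KRAB zinc finger genes multiplied by tandem duplication and lie in clusters, above all on chromosome 19, with many near copies. Members without a KRAB box include factors with other roles, from chromatin complexes to ribosome assembly.

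Reads assigned to genes numbered 24495995, 25520901 and 24249429 in the libraries labelled knockdown, and 24234762, 21348509 and 22571333 in the scramble libraries. SCUBE3 itself did not pass the test: it averaged 4.06 ± 0.0837 CPM (reads scaled to TMM-adjusted library totals) in the libraries labelled knockdown and 3.99 ± 0.373 CPM in scramble (SD, n = 3 each; log2 fold change 0.03 ± 0.14 SE, adjusted p = 0.871 by edgeR's quasi-likelihood test). SCUBE3 RNA thus did not bear out the label, and the group is called by its label throughout; the labels mention a western blot for SCUBE3 protein, not analysed here. The MDA-MB-231 markers VIM, CD44, AXL, EGFR, CAV1 and ZEB1 were read in every library and each passed the test, CD44 and CAV1 as higher (log2 fold changes 0.86 and 1.10) and VIM, AXL, EGFR and ZEB1 as lower (-0.87, -0.17, -0.84 and -0.94). Of the markers taken as low in this line, CDH1, ERBB2 and GATA3 were higher, PGR was lower and EPCAM did not pass. CDH1 had 152 reads in all in the libraries labelled knockdown and 3 in scramble, PGR had 0 against 66, and ESR1 had 0 against 8. The rest were plainly read. ERBB2 had 92.2 CPM with the knockdown label and 53.5 CPM in scramble, where ZEB1 had 88.7 and 170 CPM. GATA3 had 15.5 against 5.91 CPM and EPCAM 15.4 against 14.6 CPM. Among markers of other cell types the leukocyte gene PTPRC had 11 reads against 9, the liver gene ALB 4 against 0, and the endothelial gene PECAM1 196 against 66 (log2 fold change 1.39 ± 0.23 SE, adjusted p = 7.03e-07). The groups also differed in reads without a gene (11.01% to 11.12% with the knockdown label, 14.44% to 14.99% in scramble) and in reads aligned to several places, as a share of reads in genes and special rows together (29.3% to 29.6% against 34.0% to 34.2%). Their part in the results on zinc finger genes was not tested. In bulk RNA, fewer cells with a transcript and less RNA per cell cannot be told apart.

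The largest contrasts among the 222 genes were between reads and no reads. ZNF542 and ZNF582, which lie side by side on chromosome 19, had reads in all 3 libraries labelled knockdown and none in scramble. ZNF630 on chromosome X had a single scramble read, and ZNF503 on chromosome 10 had the largest fall. Promoter sequences that RefSeq lists are shown for ZNF582 and ZNF630, with 0 and 1 scramble reads, and for ZNF503, with the largest fall. That of ZNF583, the gene beside ZNF582 that was read in both groups, is shown with them. The promoter of ZNF626 is not shown, although its rise (log2 fold change 3.30) was as large as the fall of ZNF503 (-3.26). ZNF542, listed in RefSeq as the pseudogene ZNF542P, is named only. Each is 300 bases on build GRCh38.p14, from 250 before to 50 after the gene's start, written 5′ to 3′ on the gene's strand with every CG in capitals; ZNF582 is at chr19:56393485-56393784 (minus strand), ZNF583 at chr19:56403764-56404063 (plus strand), ZNF630 at chrX:48071591-48071890 (minus strand) and ZNF503 at chr10:75401867-75402166 (minus strand).
ZNF582: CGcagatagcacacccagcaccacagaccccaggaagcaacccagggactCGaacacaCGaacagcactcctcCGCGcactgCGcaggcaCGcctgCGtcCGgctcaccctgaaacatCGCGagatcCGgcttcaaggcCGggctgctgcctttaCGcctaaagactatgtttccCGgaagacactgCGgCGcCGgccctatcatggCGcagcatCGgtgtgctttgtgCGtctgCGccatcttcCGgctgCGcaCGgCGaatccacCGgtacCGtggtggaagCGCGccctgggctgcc
ZNF583: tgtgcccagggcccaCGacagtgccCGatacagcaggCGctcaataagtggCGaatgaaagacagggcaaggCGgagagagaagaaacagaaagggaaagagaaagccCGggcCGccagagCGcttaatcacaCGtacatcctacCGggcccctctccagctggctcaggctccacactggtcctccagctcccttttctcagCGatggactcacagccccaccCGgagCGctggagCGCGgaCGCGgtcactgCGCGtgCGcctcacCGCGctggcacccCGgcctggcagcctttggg
ZNF630: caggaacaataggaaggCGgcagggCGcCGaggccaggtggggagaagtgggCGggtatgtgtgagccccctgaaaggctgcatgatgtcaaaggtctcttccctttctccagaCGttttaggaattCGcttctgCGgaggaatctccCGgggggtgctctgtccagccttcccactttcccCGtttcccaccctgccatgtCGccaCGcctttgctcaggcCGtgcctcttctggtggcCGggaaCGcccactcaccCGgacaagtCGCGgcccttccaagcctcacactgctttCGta
ZNF503: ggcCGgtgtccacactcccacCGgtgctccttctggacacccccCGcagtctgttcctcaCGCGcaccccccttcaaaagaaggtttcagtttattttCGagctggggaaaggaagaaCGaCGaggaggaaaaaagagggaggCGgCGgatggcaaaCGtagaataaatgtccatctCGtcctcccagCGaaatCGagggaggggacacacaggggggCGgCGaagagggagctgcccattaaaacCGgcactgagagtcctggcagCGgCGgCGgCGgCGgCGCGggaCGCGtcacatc

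CG is the dinucleotide at which DNA is methylated in human cells, and it reads the same on both strands. The ZNF582 promoter holds 30 CG, a number reached by 22.4% of the 35116 RefSeq promoters of the same length. The ZNF583 promoter holds 23 (35.8% of promoters have as many or more), the ZNF503 promoter 26 (30.1%) and the ZNF630 promoter 18 (44.5%). Over the 180 members with a promoter entry the median was 22 CG, against 14 over all promoters. It was 23 in 51 genes that rose and 22 in 85 that fell, and these medians were close. These counts describe the letters; no methylation was measured here.

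ZNF542 had 259, 270 and 282 reads in the libraries labelled knockdown and 0, 0 and 0 in scramble. Set against a floor of 3 reads over the scramble group, its level of 10.7 ± 0.584 CPM (SD, n = 3) was at least 239-fold higher with the knockdown label. ZNF582, a KRAB protein with 9 finger patterns whose promoter is a known site of methylation in cervical cancer screening, had 26, 33 and 26 reads against 0, 0 and 0, and was at least 25.1-fold higher. Neither gene's groups overlap, and both pass the test (adjusted p = 7.56e-25 for ZNF542 and 7.38e-11 for ZNF582). Both have transcripts that are nearly unique among annotated transcripts: 99.4% of 50-base windows for ZNF542 and 100% for ZNF582 occur in no other gene outside their locus.

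Their neighbours did not move as one block. ZNF583, next to ZNF582, was read in every library and rose by less, with 5.41, 6.40 and 6.35 CPM in the libraries labelled knockdown and 4.63, 3.24 and 3.33 CPM in scramble (log2 fold change 0.69 ± 0.14 SE, adjusted p = 3.01e-05). ZNF667, the next member along, had 1 read in all 6 libraries together. ZSCAN5A, whose RefSeq span overlaps that of ZNF542, went the other way, with 68 reads in all in the libraries labelled knockdown and 292 in scramble (log2 fold change -2.27 ± 0.20 SE, adjusted p = 4.24e-13). No source used here states the strand setting of the counting, so the reads of ZSCAN5A and ZNF542 may not be cleanly apart. Within this stretch 1 gene fell, 3 rose and 1 was nearly silent. Among the 222 members, 47 have a RefSeq span that overlaps another listed gene.

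ZNF630, a KRAB gene with 11 finger patterns, came close to the same pattern and is named after its values were seen. It had 34, 53 and 52 reads in the libraries labelled knockdown and 0, 0 and 1 in scramble, a ratio of 123 (95% exact counting interval 21.7 to 4896). That interval covers counting error only. Of the 222 genes, 2 had no scramble read and at least 1 CPM with the knockdown label (0.901%), where 0.224% of all listed genes did. The reverse, no read with the knockdown label and at least 1 CPM in scramble, held for 0 of the 222 and for 0.129% of all genes. Counting any read at all, 10 members (4.50%) were read only with the knockdown label and 3 (1.35%) only in scramble, against 5.12% and 2.996% of all listed genes, so the members are no more frequent than the background. Apart from ZNF542 and ZNF582 these had between 1 and 8 reads in all. Of these, ZNF676 had 2, 3 and 3 reads in the libraries labelled knockdown against 0, 0 and 0 in scramble (at least 2.36-fold higher), and ZNF648 had 0, 0 and 0 against 2, 3 and 1 (at least 2.26-fold lower); both had too few reads to be tested. ZNF727, read in both groups but too low to be tested, had 12, 9 and 12 reads against 2, 0 and 1, a ratio of 9.74 (95% exact counting interval 3.06 to 49.6). The groups of these 3 genes do not overlap, but the genes were named after their values were seen, so this adds no support. ZNF578 and ZNF534, also not tested, had no overlap either, with 16 reads in all against 2 and 5 against 0. No share over untested genes is given.

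The number of these genes that were read was slightly larger with the knockdown label, as was that of all genes, while their summed level was lower. At least 1 read was found for 203, 205 and 203 members in the libraries labelled knockdown, against 198, 196 and 197 in scramble. Over all listed genes the numbers were 15792, 15895 and 15809 against 15375, 15339 and 15333. Thinned to the depth of the smallest library the members read were 202, 204 and 203 against 198, 196 and 197. The summed level of all members was 3503, 3461 and 3458 CPM in the libraries labelled knockdown and 4307, 4256 and 4311 CPM in scramble. The means differed by -817 CPM. Neither measure's groups overlap, and the exact two-sided permutation test over the 6 libraries gave p = 0.1 for each, the smallest p that 3 against 3 allows. ZNF664, ZNF644, ZNF638 and ZNF609 alone held 11.99% of the members' reads with the knockdown label and 16.6% in scramble.

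Gene by gene, 195 members had enough reads to be tested. With the knockdown label 64 were higher (32.8%) and 101 lower (51.8%), and 30 did not pass. Of all 13606 genes tested, 85.9% passed at an adjusted p under 0.05, 43.4% as higher and 42.5% as lower, so a passing test is the usual state in this comparison and the members' total of 84.6% is no more than the background. Their split differs from the even background in leaning lower. The median log2 fold change was -0.20 over the tested members and 0.01 over all tested genes. Counting ZNF542 and ZNF582 at their bounds leaves it at -0.20, as it must, because both bounds also lie above the median. The 271 tested genes with other ZNF symbols had 94 higher and 132 lower with a median of -0.19, which is close to the values here, so the lean is not particular to the numbers 500 to 799.

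Most changes were small. The median size of the log2 fold change was 0.52, against 0.64 over all tested genes. A change of less than 1.5-fold was found for 107 of the 195, and for 6335 of all 13606 tested genes. A rise of at least 2-fold was found for 21 members, where 17.5% of all tested genes had one. A fall of at least 2-fold was found for 20, where 13.8% did. With both directions together, 21.0% of tested members passed with a change of at least 2-fold, against 31.2% of all tested genes. The groups did not overlap in 163 of the 195 (83.6%), where 85.8% of all tested genes did not overlap.

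**Figure D1:**
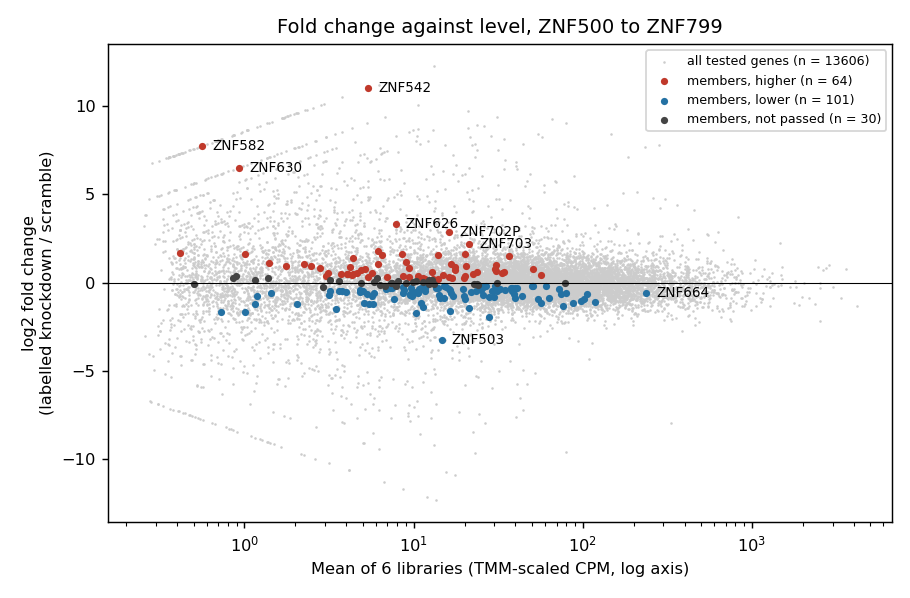
Log2 fold change (libraries labelled knockdown over scramble) against the mean TMM-scaled CPM of the 6 libraries on a log axis, for all 13606 tested genes (grey) and the 195 tested members (64 higher in red, 101 lower in blue, 30 not passed in black). ZNF542, ZNF582 and ZNF630 stand far above the other members, though not above all genes, and their fitted values rest on 0 or 1 scramble reads and depend on the prior count.

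The next largest rises among tested members were in ZNF626 and ZNF702P, both on chromosome 19. ZNF626, a KRAB gene with 12 finger patterns, had 14.5, 13.5 and 14.5 CPM in the libraries labelled knockdown and 1.05, 1.67 and 1.62 CPM in scramble. Its log2 fold change was 3.30 ± 0.14 SE (adjusted p = 1.71e-23). ZNF702P, a pseudogene as its suffix says, had 29.9, 29.4 and 26.7 CPM against 3.66, 4.01 and 3.91 CPM, a log2 fold change of 2.89 ± 0.09 SE (adjusted p = 1.86e-27). For both genes every library labelled knockdown lay above every scramble library by several fold. ZNF525, also a KRAB gene of chromosome 19, had 9.57 ± 0.273 CPM against 2.75 ± 0.374 CPM (log2 fold change 1.80 ± 0.13 SE).

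ZNF585B and ZNF585A are near copies on chromosome 19, and their values parted. ZNF585B had 12.3, 13.5 and 12.8 CPM in the libraries labelled knockdown and 4.46, 4.25 and 3.96 CPM in scramble (log2 fold change 1.60 ± 0.11 SE, adjusted p = 6.12e-17). ZNF585A had 6.69, 8.06 and 7.12 CPM against 7.16, 7.92 and 7.11 CPM, and its groups overlap (log2 fold change -0.02 ± 0.11 SE, adjusted p = 0.888). Each encodes 21 finger patterns. Only 79.4% of the 50-base windows of ZNF585B and 85.2% of those of ZNF585A are found in no other gene, so reads from the shared stretches could be lost or split, and the 2 values are uncertain to that extent.

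Outside chromosome 19 the largest rises of tested members after ZNF630 were in ZNF703, ZNF518B and ZNF783. ZNF518B, a chromatin factor that binds the histone methyltransferase G9a, had 30.2 ± 1.94 CPM in the libraries labelled knockdown and 9.95 ± 1.06 CPM in scramble (SD, n = 3 each; log2 fold change 1.60 ± 0.08 SE). ZNF783 had 20.8 ± 1.06 CPM against 6.95 ± 1.16 CPM (log2 fold change 1.59 ± 0.09 SE). Neither gene's groups overlap.

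ZNF703 and ZNF503, the human members of the NET family, went opposite ways. These proteins are transcriptional repressors with an atypical finger, which the C2H2 pattern used here did not match, and ZNF703 is amplified in luminal breast cancer. ZNF703 had 33.3, 35.9 and 35.5 CPM in the libraries labelled knockdown and 7.45, 7.68 and 7.65 CPM in scramble (log2 fold change 2.20 ± 0.08 SE, adjusted p = 2.03e-26). ZNF503 had 3.17, 2.39 and 2.75 CPM against 25.6, 28.0 and 25.8 CPM (log2 fold change -3.26 ± 0.10 SE, adjusted p = 8.34e-28), the largest fall and the smallest adjusted p among the 222 genes. One gene of the pair was thus higher and the other lower with the knockdown label, with no overlap for either gene. NCRNA00245, whose RefSeq span overlaps ZNF503, also fell, with 44 reads in all against 95 (log2 fold change -1.28 ± 0.28 SE, adjusted p = 7.82e-05).

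Of the other members that fell most among those with at least 2 CPM in scramble, ZNF589, a KRAB gene, had 11.5, 11.3 and 11.6 CPM in the libraries labelled knockdown and 45.7, 42.7 and 45.3 CPM in scramble (log2 fold change -1.96 ± 0.07 SE, adjusted p = 8.99e-27). ZNF704 on chromosome 8 had 8.06 ± 0.343 CPM against 24.7 ± 1.71 CPM (log2 fold change -1.62 ± 0.08 SE). ZNF521, a many-fingered cofactor known from blood stem and progenitor cells, had 11.6, 10.99 and 11.9 CPM against 29.9, 32.6 and 31.4 CPM (log2 fold change -1.45 ± 0.07 SE, adjusted p = 3.35e-21). The groups do not overlap in any of the 3. ZNF507 had 43.3 ± 1.99 CPM against 109 ± 0.763 CPM (log2 fold change -1.33 ± 0.04 SE), which put it among the 4 members with the smallest adjusted p although its change was smaller. ZNF573 was lower at 1.80 ± 0.421 CPM against 5.12 ± 0.474 CPM (log2 fold change -1.51 ± 0.17 SE), on fewer reads.

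**Figure D2:**
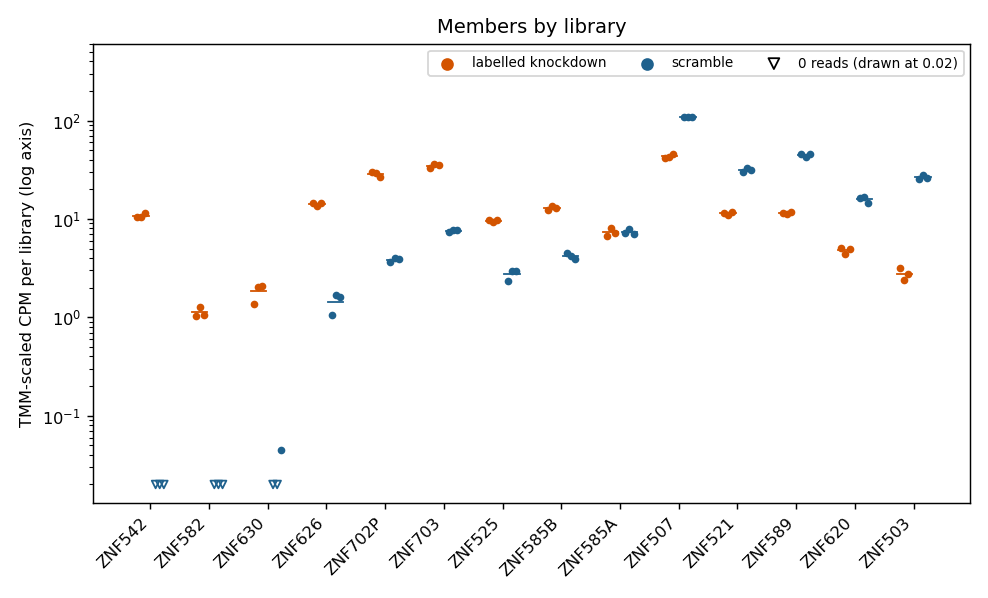
TMM-scaled CPM on a log axis in each library for 14 members, with the libraries labelled knockdown (orange) left of scramble (blue) for each gene; short lines are means of 3 and open triangles mark libraries with 0 reads, drawn at 0.02. The groups are apart for each gene shown except ZNF585A, with ZNF703 higher and ZNF503 lower in the libraries labelled knockdown.

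The 4 members with the highest CPM, a scale that is not per length, also fell. ZNF664 had 190, 186 and 190 CPM in the libraries labelled knockdown and 292, 287 and 285 CPM in scramble (log2 fold change -0.61 ± 0.03 SE). ZNF644, a partner of the H3K9 methyltransferases G9a and GLP, had 79.6, 73.2 and 75.6 CPM against 168, 154 and 157 CPM (log2 fold change -1.07 ± 0.04 SE). ZNF638, which guides the HUSH silencing complex to unintegrated retroviral DNA, had 82.0 ± 7.09 CPM against 130 ± 5.74 CPM (log2 fold change -0.66 ± 0.05 SE). ZNF609, a regulator known from mouse cortical progenitors, had 70.0 ± 1.09 CPM against 133 ± 2.94 CPM (log2 fold change -0.92 ± 0.04 SE). No library labelled knockdown reached a scramble library in any of them. Per kilobase of the longest annotated transcript, ZNF664 was also the highest member, with a mean over the 6 libraries of 46.6 CPM per kilobase, followed by ZNF622 with 37.0 and ZNF787 with 29.6 CPM per kilobase. By level, 14 of the 60 tested members at 20 CPM or more rose and 41 fell, where 43.2% of all tested genes at that level rose and 46.2% fell. Of the 92 at 5 to 20 CPM, 30 rose and 46 fell (45.7% and 39.7% of all genes). Of the 36 at 1 to 5 CPM, 17 rose and 13 fell (42.3% and 35.8%), and of the 7 under 1 CPM, 3 rose and 1 fell (40.7% and 31.1%).

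At the other end, ZNF655, ZNF669, ZNF789 and ZNF585A had the log2 fold changes nearest 0 among members of at least 5 CPM. ZNF655 had 80.5, 77.8 and 75.6 CPM in the libraries labelled knockdown and 80.3, 78.7 and 78.4 CPM in scramble. Its log2 fold change was -0.02 ± 0.04 SE (adjusted p = 0.647), and its groups overlap as do those of the other three. ZNF669 had 7.44 ± 0.423 CPM against 7.51 ± 0.765 CPM, and ZNF789 had 5.88 ± 0.335 CPM against 5.81 ± 0.348 CPM.

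A KRAB box was found by a sequence profile in 148 of the 222 genes. Of these 130 were tested, and 45 rose (34.6%) and 61 fell (46.9%), where 43.4% and 42.5% of all tested genes did, with a median log2 fold change of -0.10. Among the 69 coding members without the box 61 were tested, and 16 rose (26.2%) and 39 fell (63.9%), with a median of -0.34. The 2 sets also differed in other ways. Of the 130 tested KRAB members 82 lie on chromosome 19, and of those elsewhere 64.6% fell, with a median of -0.47. Tested members without the box had a median level of 24.1 CPM, against 8.90 CPM with it. The part of chromosome and level in this contrast was not tested. The 5 members without a coding transcript had 4 tested, of which 3 rose and 1 fell. The number of finger patterns, at a median of 9 and up to 34 in a protein, was alike in members that rose and in those that fell (median 9 in both).

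Members were also set apart by chromosome. Chromosome 19 holds 111 of the 222 genes. Its 98 tested members had 41 higher (41.8%) and 35 lower (35.7%) with a median log2 fold change of 0.07. The 97 tested on other chromosomes had 23 higher (23.7%) and 66 lower (68.0%) with a median of -0.45. KRAB genes showed the same contrast among themselves: on chromosome 19, 34 rose and 30 fell of 82 tested, and elsewhere 11 rose and 31 fell of 48. Genes of chromosome 19 outside the ZNF symbols were also more often higher, with 363 higher and 248 lower of 708 tested and a median of 0.18. The other ZNF symbols on chromosome 19 were nearer to even, with 48 higher and 53 lower of 121 tested and a median of 0.05. Genes of other chromosomes outside the ZNF symbols had a median of 0.01, with 43.8% higher and 42.8% lower of 11919 tested. The other ZNF symbols on other chromosomes also leaned lower, but by less than the members. They had 46 higher (30.7%) and 79 lower (52.7%) of 150 tested, with a median of -0.22. The split between chromosomes was drawn after values were seen and is given without a test.

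**Figure D3:**
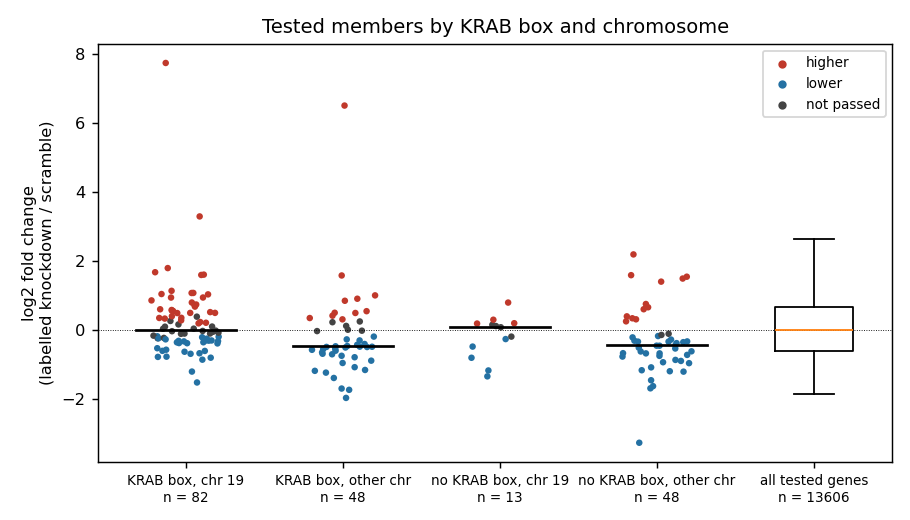
Log2 fold change (libraries labelled knockdown over scramble) of tested members by KRAB box and chromosome; points are genes, coloured by the test, black bars are medians, and the box gives the quartiles of all 13606 tested genes with whiskers at the 5th and 95th percentiles. Members on other chromosomes sit mostly below 0, with and without a KRAB box; 4 tested members without a coding transcript are left out.

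Runs of at least 3 members with no other listed gene between them, in RefSeq order, numbered 15. The run ZNF619, ZNF620 and ZNF621 on chromosome 3, KRAB genes, fell as a whole. ZNF620 had 5.09, 4.44 and 4.89 CPM in the libraries labelled knockdown and 16.4, 16.8 and 14.4 CPM in scramble (log2 fold change -1.72 ± 0.10 SE, adjusted p = 1.17e-18). ZNF619 had 6.30 ± 0.332 CPM against 16.4 ± 1.05 CPM, a log2 fold change of -1.38 ± 0.09 SE. ZNF621 had 63.1 ± 0.901 CPM against 132 ± 1.70 CPM, a log2 fold change of -1.07 ± 0.04 SE. On chromosome 7, ZNF777, ZNF746 and ZNF767 also each fell, with the largest change in ZNF767 (log2 fold change -0.93 ± 0.07 SE) and the smallest in ZNF746, whose call ended without scramble replicate 3 (adjusted p = 0.0651) and with library totals (0.0586).

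Other runs were mixed. In the run of 6 on chromosome 16, ZNF747 rose (log2 fold change 0.56 ± 0.18 SE, adjusted p = 0.00379, but 0.0568 without scramble replicate 2) and ZNF689 fell (log2 fold change -0.88 ± 0.08 SE, adjusted p = 4.00e-13). On chromosome 19, ZNF525 rose in a run with ZNF765, which did not pass (log2 fold change -0.07 ± 0.09 SE, adjusted p = 0.485). ZNF550 fell (log2 fold change -1.19 ± 0.14 SE) in a run of 3 with 2 genes higher and 1 lower. ZNF773, at the other end of that run, was higher (log2 fold change 1.68 ± 0.46 SE, adjusted p = 0.000917). It had 15, 13 and 20 reads in the libraries labelled knockdown, against 7, 2 and 4 reads in scramble. ZNF580 fell (log2 fold change -0.79 ± 0.06 SE) and ZNF581 was higher (0.20 ± 0.08 SE, adjusted p = 0.0233), but their spans overlap and no source used here states the strand setting of the counting, so their reads may not be cleanly apart. ZNF671 rose and ZNF586 fell within 1 run of 4.

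The remaining runs were on chromosomes 19 and 7. ZNF554 and ZNF555 both rose (log2 fold changes 0.95 ± 0.19 SE and 0.75 ± 0.13 SE). ZNF528 had 22.4 ± 0.561 CPM in the libraries labelled knockdown and 10.6 ± 1.22 CPM in scramble (log2 fold change 1.08 ± 0.08 SE). ZNF780A fell (-0.52 ± 0.07 SE) in a run of 3 with 2 genes higher and 1 lower. ZNF546, at the other end of that run, was higher at 0.36 ± 0.17 SE (adjusted p = 0.0463). Its call ended without scramble replicate 1 (adjusted p = 0.067) or 3 (0.223) and without labelled-knockdown replicate 1 (0.196) or 2 (0.0514). The call also ended with DESeq2 (0.119), limma-voom (0.0588) and no low-count filter (0.0506). ZNF570 rose (0.50 ± 0.16 SE, adjusted p = 0.00337, but 0.0610 without labelled-knockdown replicate 1) where ZNF527 was lower (-0.24 ± 0.10 SE, adjusted p = 0.0233, but 0.0584 and 0.0851 without labelled-knockdown replicates 2 and 3, 0.072 with library totals and 0.0724 with DESeq2). ZNF649 was lower (-0.29 ± 0.11 SE, adjusted p = 0.0117), ZNF577 did not pass (adjusted p = 0.956), and neither did ZNF607 (adjusted p = 0.251). ZNF736 and ZNF680 on chromosome 7 were both lower, at -0.47 ± 0.15 SE and -0.29 ± 0.08 SE. Over all 62 pairs of direct neighbours, 50 had both genes tested and 32 had both called, of which 22 went the same way. The called members leaned lower as a whole (64 higher and 101 lower), which by itself makes some pairs agree. No share over neighbouring pairs of all genes was computed, so no conclusion about neighbours is drawn from this count.

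**Figure D4:**
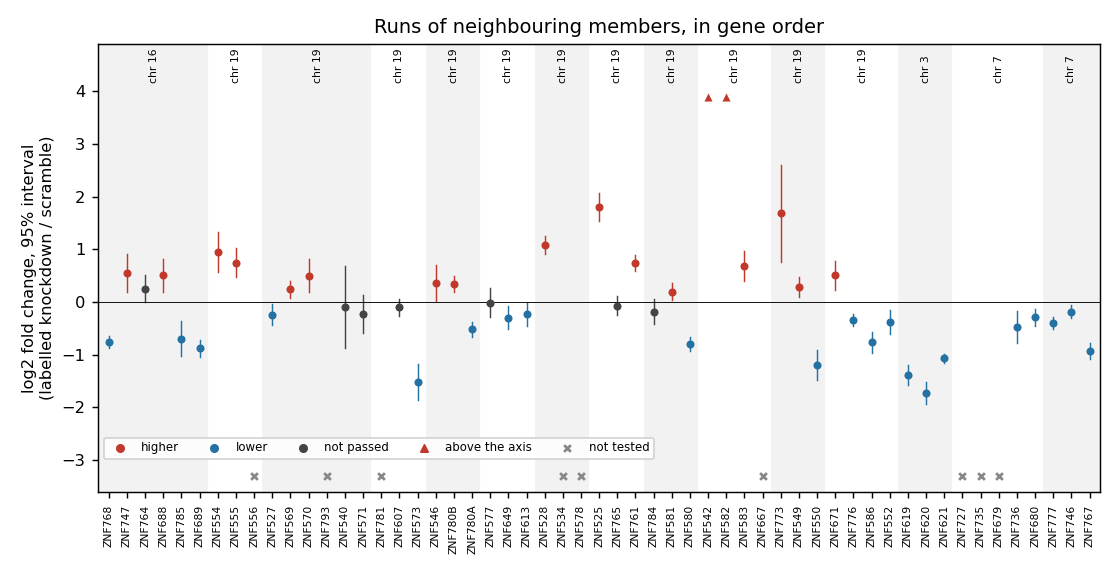
Log2 fold change (libraries labelled knockdown over scramble) with its 95% interval for the members in the 15 runs, in gene order along each run, with the chromosome above each shaded block. Triangles are ZNF542 and ZNF582, whose values lie above the axis, crosses are members not tested, and the 3 genes of the chromosome 3 run lie together near -1 and below.

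Of the members with a well-described role, 26 were listed. No read was found for ZNF536, ZNF683 and ZNF750, which are known from neurons, tissue-resident lymphocytes and epidermis; ZNF541, ZNF667 and ZNF711 had 1 read each and were not tested. Of the 20 tested, 5 rose, 14 fell and 1, ZNF568, did not pass; the median over the 20 was -0.33 on the log2 scale. Of all tested genes 43.4% were higher and 42.5% lower, and of all tested members 32.8% and 51.8%. ZNF568, whose mouse counterpart represses placental Igf2, had 7.25, 5.09 and 5.62 CPM in the libraries labelled knockdown and 7.20, 6.20 and 6.52 CPM in scramble. Its groups overlap, and its adjusted p of 0.254 became 0.0358 without labelled-knockdown replicate 1.

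The 3 zinc finger proteins that work with ZMYND8 in one chromatin complex did not move together. ZNF592 fell to 63.2 ± 0.918 CPM in the libraries labelled knockdown, against 96.3 ± 0.647 CPM in scramble (log2 fold change -0.61 ± 0.04 SE). ZNF532 fell to 33.2 ± 1.45 CPM, against 41.7 ± 1.95 CPM (-0.33 ± 0.06 SE). ZNF687 rose, with 40.3, 35.0 and 38.5 CPM in the libraries labelled knockdown and 23.4, 24.6 and 23.6 CPM in scramble (0.67 ± 0.06 SE, adjusted p = 9.70e-13). Its groups do not overlap. The RefSeq span of ZNF687 overlaps that of PI4KB.

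Among members that act on ribosomes, ZNF622, which joins late assembly of the large subunit, fell, with 44.3, 45.6 and 44.4 CPM in the libraries labelled knockdown and 81.5, 79.1 and 82.7 CPM in scramble (log2 fold change -0.86 ± 0.05 SE, adjusted p = 7.34e-20). ZNF598, the ubiquitin ligase that senses collided ribosomes, fell by less, to 64.1 ± 2.25 CPM against 81.4 ± 4.78 CPM (-0.34 ± 0.05 SE). ZNF593, whose yeast counterpart escorts the large subunit out of the nucleus, rose to 22.6 ± 1.30 CPM against 17.8 ± 1.48 CPM (0.35 ± 0.07 SE). The groups are apart in the 3 genes.

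Several cofactors and signalling regulators fell. ZNF516, a transcription factor known from mouse brown fat, had 14.9 ± 0.581 CPM in the libraries labelled knockdown and 24.8 ± 0.911 CPM in scramble (log2 fold change -0.74 ± 0.07 SE). ZNF652, a repressor that binds the corepressor CBFA2T3, had 19.5 ± 0.9754 CPM against 27.5 ± 2.17 CPM (-0.50 ± 0.07 SE). ZNF675, an inhibitor of TRAF6 signalling, ZNF618, a partner of the 5-hydroxymethylcytosine reader UHRF2, and ZNF668, known from the DNA damage response, fell by smaller amounts, with log2 fold changes of -0.37 ± 0.08, -0.30 ± 0.05 and -0.27 ± 0.08 SE. The span of ZNF668 overlaps that of ZNF646. ZNF746 (PARIS), a Parkin substrate, was lower at -0.18 ± 0.06 SE (adjusted p = 0.00909), with the losses of its call given above. ZNF639 rose (0.41 ± 0.05 SE), and so did ZNF653 (0.31 ± 0.10 SE, adjusted p = 0.00341).

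The genes listed here as KRAB corepressors were read throughout, and more of them fell than rose. The list was made by hand and takes in wider silencing factors, whose recruitment by KRAB proteins was not measured. Of 31 genes listed, 6 were higher, 20 lower and 5 did not pass. Their median on the log2 scale was -0.27, against 0.01 over all tested genes, of which 42.5% were lower. TRIM28 itself had 494, 516 and 506 CPM in the libraries labelled knockdown and 517, 548 and 549 CPM in scramble. Its groups are apart by less than 1 CPM, and its log2 fold change of -0.09 ± 0.03 SE (adjusted p = 0.00608) lost its call with library totals (0.232) and without labelled-knockdown replicate 1 (0.0630). SETDB1 had 36.5 ± 2.59 CPM against 43.5 ± 2.61 CPM (-0.25 ± 0.06 SE).

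Corepressor genes with the smallest adjusted p, each lower, were partners further along. CBX5, which encodes HP1 alpha, had 123, 112 and 115 CPM in the libraries labelled knockdown and 317, 305 and 297 CPM in scramble (log2 fold change -1.39 ± 0.04 SE, adjusted p = 2.51e-30). PPHLN1, a subunit of the HUSH complex, and ATF7IP, the partner that stabilises SETDB1, had log2 fold changes of -1.14 ± 0.05 and -1.10 ± 0.04 SE. The NuRD remodellers CHD4 and CHD3 had log2 fold changes of -1.09 ± 0.03 and -0.92 ± 0.03 SE, and the NuRD subunits HDAC2 and GATAD2B had -0.77 ± 0.03 and -0.77 ± 0.05 SE. DNMT1, the maintenance DNA methyltransferase, had 527 ± 8.06 CPM against 868 ± 12.4 CPM (-0.72 ± 0.03 SE). SUV39H1, an H3K9 methyltransferase, rose (0.74 ± 0.05 SE), and so did the NuRD subunits RBBP4 (0.57 ± 0.05 SE) and HDAC1 (0.39 ± 0.04 SE). SMARCAD1, MORC3 and EHMT2 were the other corepressor genes that rose (0.36, 0.34 and 0.24). Of the remaining NuRD subunits listed, MTA1, MTA2, MTA3 and GATAD2A fell and RBBP7 did not pass.

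**Figure D5:**
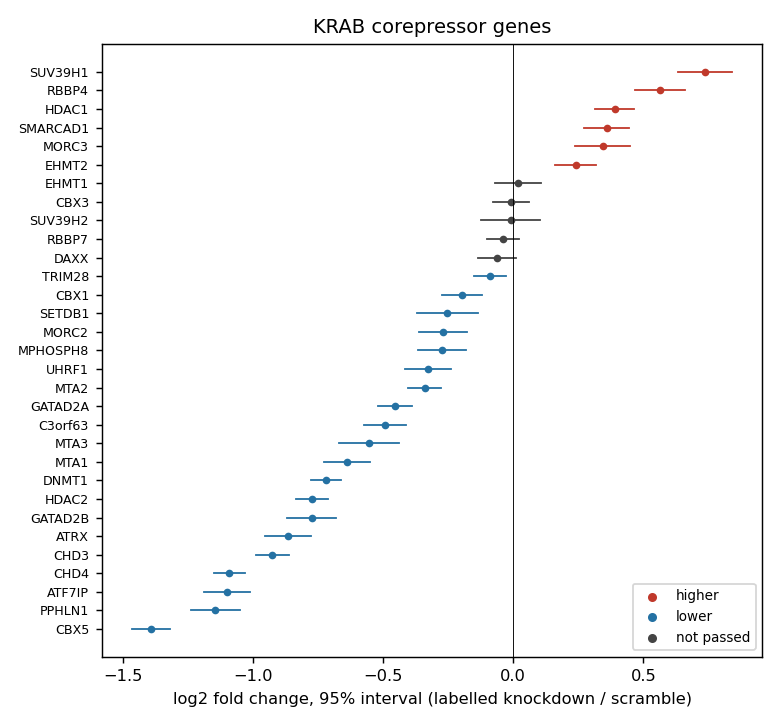
Log2 fold change (libraries labelled knockdown over scramble) with its 95% interval for the 31 KRAB corepressor genes, ordered by value and coloured by the test; C3orf63 is the table's name for the HUSH subunit FAM208A. SUV39H1 is the highest and CBX5 the lowest, and TRIM28 lies close to 0.

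The members outside the test were of 2 kinds. No read was found in any library for 12: ZNF536, ZNF645, ZNF658B, ZNF677, ZNF679, ZNF683, ZNF705A, ZNF705D, ZNF705G, ZNF729, ZNF735 and ZNF750. In 4 of these (ZNF658B, ZNF705A, ZNF705D and ZNF705G) less than 60% of the 50-base windows are unique, so reads from them may have been left out as aligned to several places. A further 15 were read but had at most 12 reads in a library and were not tested. Of the 222 genes, 201 had at least 90% unique windows.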

How the data were processed

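The 6 libraries of polyA RNA were sequenced as 50-base single reads with a stranded kit, per the labels' protocols. The tools bcl2fastq, TopHat2 (2.0.8b) and HTSeq and the build hg19 are named in the submitters' processing notes. The authors deposited raw read counts per gene, not normalized; HTSeq's special rows were left out of totals. Counts were tested over the whole table with edgeR 4.0.16 in R 4.3.3 (quasi-likelihood F test, robust, TMM scaling, filterByExpr, two-sided, Benjamini-Hochberg adjusted p under 0.05, all 6 libraries, group as the only term). CPM are scaled to TMM-adjusted totals of reads in genes. SE is the log2 fold change divided by the square root of F. limma 3.58.1 and DESeq2 1.42.0 served as alternatives, and the fit was tested on simulated data. A group with 0 reads was set at a floor of 3 reads; floors and intervals cover counting error only, since reads carry no molecular identifiers.

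Finger patterns, the KRAB profile (pyhmmer 0.12.3, 240 windows, E-value 0.001), transcript lengths and 50-base windows came from GENCODE v29 transcripts; chromosomes, gene order and promoters from RefSeq GRCh38.p14. The files use hg19, so no gene coordinates are given. The 4 read-through rows with hyphenated names were outside the rule.

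The members and lists were chosen with earlier results of these data known. Named members were those with 0 reads in 1 group and at least 1 CPM in the other, the 8 largest rises and 8 largest falls among called members with at least 2 CPM and no overlap, the 4 smallest adjusted p, the 4 highest CPM, the 4 nearest 0 with at least 5 CPM, the role list, the highest and lowest of each run, and the top 8 corepressors with TRIM28 and SETDB1. ZNF630, ZNF676, ZNF648, ZNF727, ZNF578, ZNF534, ZNF585A beside its copy, ZNF787 and genes neighbouring members were named after their values were seen. So were SUV39H1 and the other corepressor genes outside the top 8, apart from TRIM28 and SETDB1. Alternatives were other scalings, filters, tools, thresholds, a replicate block and leaving out each library.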

Additional observations from a re-analysis of the deposited data

How the results depend on the processing

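Counts of members called higher or lower stayed within 1.5 times of 64 and 101 under other scalings, filters, tools, the stricter adjusted p of 0.01 and the replicate block, and ranged from 60 to 64 higher and 95 to 100 lower with each library left out. A test against a 1.5-fold change left 30 higher and 39 lower members, and 1 higher and 9 lower corepressor genes; with a library left out the corepressor counts were 6 higher and 19 to 20 lower. The median log2 fold change of the members was -0.15 with library totals and -0.17 with no low-count filter, and -0.22 to -0.19 with a library left out; the median of all genes moved to 0.06 and 0.04 in the first 2 of these. The difference in summed CPM was -678 with library totals (-835 to -807 with a library left out, -817 in the main analysis). Requiring at least 10 reads, the libraries labelled knockdown had 4.33 more members read than scramble on average, against 6.67 more with 1 read (6 to 7.17 with a library left out). With a minimum of 2 CPM, 1 member was read in 1 group only; the count was 2 to 3 with a library left out, ZNF630 joining without scramble replicate 3. SCUBE3's log2 fold change ranged from -0.05 to 0.08 with a library left out. Without each library, chromosome 19 had 37 to 39 members higher and 31 to 35 lower, other chromosomes 21 to 26 and 63 to 65, KRAB members 43 to 45 and 55 to 60, and members without a KRAB box 13 to 16 and 38 to 40; these subgroup alternatives were added after seeing the data. No named gene changed direction past the threshold. ZNF581 lost its call with DESeq2 (adjusted p = 0.0618) and without scramble replicate 2 (0.0698) or labelled-knockdown replicates 1 (0.0710) or 3 (0.0714). The cause of these changes was not tested.

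The replicate numbers did not pair the libraries: the correlations of same-numbered deviations were 0.078, 0.062 and -0.0019. With the replicate block, 64 members were higher and 100 lower, and SCUBE3's log2 fold change was 0.02. Members with few reads limit the depth: 3 of the 195 tested had under 10 scramble reads in all.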
